A study of Mus musculus with 2 samples.

Results

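The miRNA genes that lie antisense to Rtl1 in the imprinted Dlk1-Dio3 domain of mouse chromosome 12 were followed by name: Mir337, Mir540, Mir665, Mir431, Mir433, Mir127, Mir434 and Mir136. Rows were chosen by Ensembl identifier, without its version, through GENCODE M21. Of these 8 genes, 7 are among the 1973 genes of the count tables. Mir136 has no row under its identifier and is described by its sequence and by the row that overlaps it. The samples were whole stomachs of B6NCrl mouse embryos at 14.5 days of development, in 2 biological replicates collected on different days. The labels name a single stomach for each sample and also give both sexes, so sex was not used. Both samples form 1 group with no treatment or altered genotype, and the libraries themselves are what can be compared. RNA was selected below 30 nt, which takes in mature miRNAs and leaves out their precursors.

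The Dlk1-Dio3 domain carries protein genes read from the paternal chromosome, among them Dlk1 and Rtl1, and non-coding RNAs read from the maternal chromosome, among them Meg3, Rian and Mirg. Rtl1 is a gene derived from a retrotransposon that is needed for the fetal capillaries of the mouse placenta. A maternal transcript runs antisense to it and is the source of miRNAs that pair with the Rtl1 mRNA over their whole length. Mouse miR-127 and miR-136 are known to direct its cleavage. The tables carry no allele information, so parental origin was not measured, and Rtl1 mRNA was not measured either.

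The mature sequences of the 8 genes are shown first because the tables give 1 count per gene and do not separate the 2 arms of a precursor. They come from RefSeq on GRCm38.p6, 5′ to 3′, with the seed (bases 2 to 8, which lead target pairing) in capitals.
miR-337-5p: cGGCGUCAugcaggaguugauu
miR-337-3p: uCAGCUCCuauaugaugccuuu
miR-540-5p: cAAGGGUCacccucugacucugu
miR-540-3p: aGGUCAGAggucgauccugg
miR-665-5p: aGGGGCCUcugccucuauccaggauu
miR-665-3p: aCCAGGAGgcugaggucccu
miR-431-5p: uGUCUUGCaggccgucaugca
miR-431-3p: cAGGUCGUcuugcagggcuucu
miR-433-5p: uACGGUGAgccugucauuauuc
miR-433-3p: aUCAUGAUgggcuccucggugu
miR-127-5p: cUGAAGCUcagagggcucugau
miR-127-3p: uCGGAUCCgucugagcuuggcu
miR-434-5p: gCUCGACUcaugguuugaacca
miR-434-3p: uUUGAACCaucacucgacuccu
miR-136-5p: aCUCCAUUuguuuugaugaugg
miR-136-3p: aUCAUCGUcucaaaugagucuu

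The 16 mature sequences had 16 different seeds, so the genes of this interval are neighbours and not a seed family. A single seed, that of miR-540-3p, was shared with another mouse miRNA of the RefSeq table, miR-6915-5p. None of the 16 occurred in another precursor, and no precursor of the 8 genes had 20 nt or more in common with another. Lengths ran from 20 to 26 nt and GC content from 36.4% in miR-136-5p and miR-136-3p to 65.0% in miR-665-3p. The first base was A in 6 sequences, U in 5, C in 4 and G in 1.

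The 8 genes lie on the plus strand within 9.6 kb of chromosome 12 (mm10, 109585789 to 109595388). Their relation to Rtl1, which is on the minus strand, depended on the annotation. In GENCODE M21 the Rtl1 gene spans 109589193 to 109600330. There, 5 of the genes, Mir431 (109590447 to 109590537), Mir433 (109591715 to 109591838), Mir127 (109592846 to 109592915), Mir434 (109594506 to 109594599) and Mir136 (109595327 to 109595388), lay opposite the coding part of its second exon. The other 3, Mir337 (109585789 to 109585885), Mir540 (109586080 to 109586146) and Mir665 (109586314 to 109586407), lay outside the gene, and Mir665 ended 2785 nt from it. The RefSeq gene span for Rtl1, 109564900 to 109604418, took in all 8.

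The antisense overlap fixes full complements in the GENCODE Rtl1 transcript for all 10 mature sequences of the 5 genes opposite its coding part. All 10 complements were found, each at its annotated position. They ran from codons 6 to 13 for miR-136-3p, near the start of the protein, to codons 1642 to 1649 of 1744 for miR-431-5p. The sites below are written as DNA in the sense of the Rtl1 mRNA, with the complement of the seed in capitals. They are given for miR-136 and miR-127, named above for cleavage of Rtl1, and for the seed most often matched in it.
Rtl1 site of miR-136-5p, codons 18 to 25: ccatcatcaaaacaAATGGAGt
Rtl1 site of miR-127-3p, codons 832 to 839: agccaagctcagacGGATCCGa
Rtl1 site of miR-434-3p, codons 273 to 280: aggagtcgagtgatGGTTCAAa

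Seeds of 4 of the 8 genes, Mir434, Mir431, Mir540 and Mir136, were complemented more than once in Rtl1. The seed complement of miR-434-3p, GGTTCAA, occurred 4 times in the sense strand of the 6358 nt transcript, 3 of them opposite the Mir434 precursor. That of miR-434-5p, AGTCGAG, occurred 3 times, and that of miR-431-5p, GCAAGAC, also 3 times, in each case 2 of them opposite its own precursor. Among the first 6358 nt of 1 protein-coding transcript from each of 2019 genes, Rtl1 included, GGTTCAA was present in 25.0% and present at least 4 times in 0.0991%. AGTCGAG was present in 10.9% and at least 3 times in 0.0495%, which is Rtl1 alone, and GCAAGAC in 35.6% and at least 3 times in 0.892%. The seed complement of miR-540-3p, TCTGACC, also occurred 3 times, none of them in the coding part. The Mir540 precursor lies outside the transcript, so none could lie opposite it. As many were present in 2.13% of the genes, a share not adjusted for the 16 seeds compared. Rtl1 was searched to its end, whereas any longer transcript was cut at 6358 nt, so a surplus cannot be read from this share. Those of miR-431-3p, ACGACCT, and miR-136-5p, AATGGAG, occurred 2 times each, and as many were present in 1.44% and 18.7% of the genes in that order. For the seeds of Mir434, Mir431 and Mir136, each occurrence opposite the gene's own precursor is fixed by the antisense overlap. That holds for 3 of 4 with miR-434-3p and 2 of 3 with miR-434-5p and with miR-431-5p. It holds for 1 of 2 with miR-431-3p and with miR-136-5p. Their shares of genes with as many matches therefore do not show a surplus of sites elsewhere in Rtl1. All of these are matches of letters, and no binding was measured. The precursor of Mir540 repeats a stretch of 10 nt, not shown here. Those of Mir434 and Mir431 also repeat a stretch, shown in capitals because it holds the seeds of miR-434-3p and miR-431-5p.
Mir434 precursor: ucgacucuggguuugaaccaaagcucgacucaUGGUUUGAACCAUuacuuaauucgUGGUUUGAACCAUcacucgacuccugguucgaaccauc
Mir431 precursor: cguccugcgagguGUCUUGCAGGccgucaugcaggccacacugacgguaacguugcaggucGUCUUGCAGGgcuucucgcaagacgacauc

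The 7 counted genes were all well represented in the embryonic stomach, and Mir127 led them. Together they held 88953 counts in replicate 2 and 104352 in replicate 1. In counts per 1000000 gene counts (CPM), the total was 19007 in replicate 2 and 20851 in replicate 1, or 19929 ± 1304 (SD, n = 2), and thus 1.99% ± 0.13 of all miRNA counts. In whole tissue, fewer cells that express a miRNA and less of it per cell cannot be told apart, and CPM is a share of the counted miRNA and not an amount. The lowest value of any of the 7 in either library was 428 CPM. For comparison, 196 of the 1973 genes had a mean of 100 CPM or more, and the median of the 361 genes with at least 10 counts in both libraries was 139 CPM.

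Mir127, which pairs with Rtl1 and is needed for the labyrinth of the mouse placenta, was read 43273 times in replicate 2 and 47850 times in replicate 1. Its level was 9247 CPM in replicate 2 and 9561 CPM in replicate 1, a mean of 9404 ± 223 CPM (SD, n = 2). The libraries lay close together, and Mir127 ranked 22nd of the 1973 genes. By itself it held 48.6% of the counts of the 7 genes in replicate 2 (95% Wilson interval 48.3% to 49.0%) and 45.9% in replicate 1 (45.6% to 46.2%).

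Mir431, known in mouse muscle as a repressor of Pax7, had 21538 counts (4602 CPM) in replicate 2 and 28404 counts (5676 CPM) in replicate 1. The mean was 5139 ± 759 CPM (SD, n = 2) and the rank 41st. Its spread between libraries was the widest of the 7. Mir127 and Mir431 together held 72.9% of the counts of the 7 genes in replicate 2 and 73.1% in replicate 1, although their own shares differed between libraries in opposite directions.

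The other 5 genes had at most 1742 CPM. Mir337, the first gene of the interval, had 7726 counts (1651 CPM) in replicate 2 and 8716 counts (1742 CPM) in replicate 1, with a mean of 1696 ± 64.2 CPM (SD, n = 2). Mir434, whose precursor repeats the stretch shown above, had 6222 counts (1329.5 CPM) in replicate 2 and 7704 counts (1539 CPM) in replicate 1, with a mean of 1434 ± 148 CPM. Mir337 was the higher of the pair in each library, and their values did not overlap. Mir433, between Mir431 and Mir127, had 5110 counts (1092 CPM) in replicate 2 and 6240 counts (1247 CPM) in replicate 1, with a mean of 1169 ± 109.6 CPM.

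Mir540 and Mir665, the closest neighbours in the interval at 167 nt apart, were the lowest. Mir540 had 2856 counts (610.3 CPM) in replicate 2 and 3298 counts (659 CPM) in replicate 1, a mean of 635 ± 34.5 CPM (SD, n = 2). Mir665 had 2228 counts (476 CPM) in replicate 2 and 2140 counts (428 CPM) in replicate 1, a mean of 452 ± 34.3 CPM. Mir665 was the sole gene of the 7 that stood higher in replicate 2 by CPM.

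**Figure D1:**
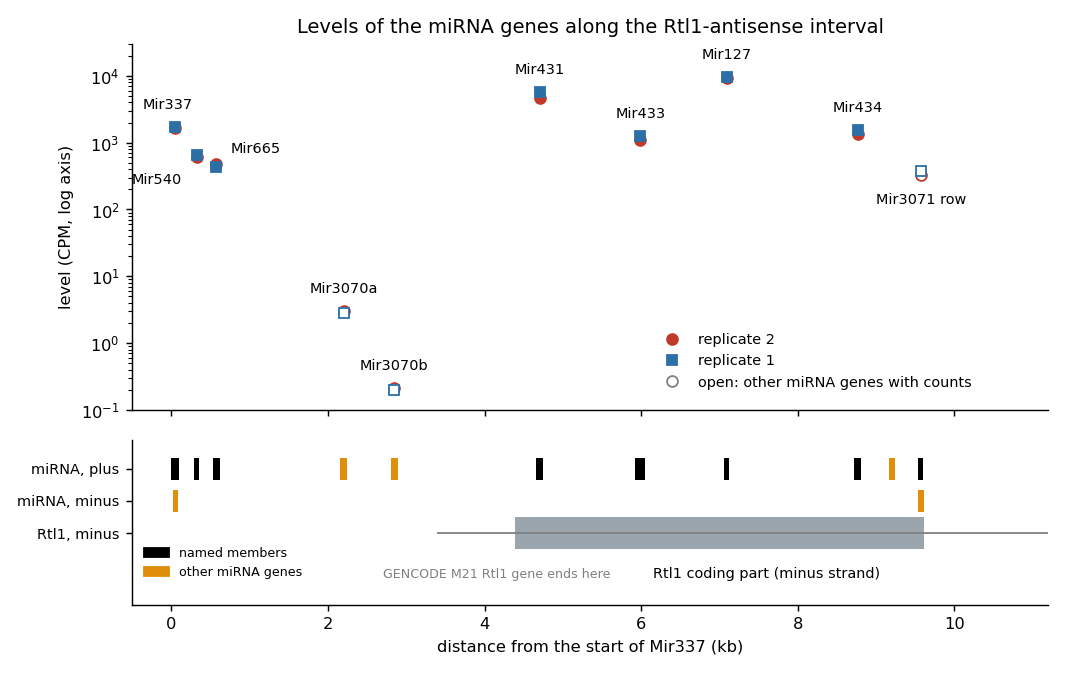
Upper panel, level of each miRNA gene of the interval in CPM on a log axis, 1 point per library, against the distance from the start of Mir337 in kb; filled points are the 7 counted members and open points other miRNA genes with counts. Lower panel, the annotated miRNA genes of each strand and the GENCODE M21 Rtl1 gene, which runs on past the right edge; Mir127 and Mir431 stand between 4602 and 9561 CPM and the 2 Mir3070 genes lie near 3 CPM and below 1 CPM.

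The order of the 7 genes by CPM was Mir127, Mir431, Mir337, Mir434, Mir433, Mir540 and Mir665 in each library, and no 2 neighbours in this order overlapped between libraries. Annotated length ran from 67 nt in Mir540 to 124 nt in Mir433. RNA was selected below 30 nt, so counts of mature miRNAs need not rise with this length. Levels were also compared per kilobase of the annotated gene (RPKM), as a description and not as a correction. On that scale Mir127 had 134342 ± 3179.6 RPKM (SD, n = 2) and Mir665 4807 ± 365 RPKM, a ratio of 28.1 ± 2.79. On the CPM scale the same ratio was 20.9 ± 2.08. Mir127 exceeded Mir431 2.40-fold ± 0.30 in RPKM and 1.85-fold ± 0.23 in CPM.

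The neighbours Mir433 and Mir540 exchanged places per length and did not differ beyond their spread there, at 9430.5 ± 884 RPKM for Mir433 and 9472 ± 514 RPKM for Mir540. The step between Mir337 and Mir434 was small on both scales, 1.19-fold ± 0.08 in CPM and 1.15-fold ± 0.08 in RPKM. The order describes counts, since the recovery of each sequence into the libraries was not measured.

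**Figure D2:**
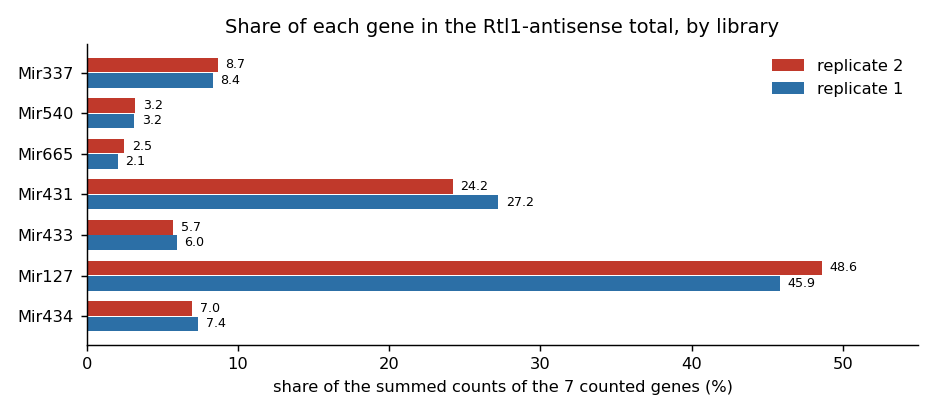
Share of each counted gene, in genome order, in the summed counts of the 7 genes (%), 1 bar per library. Mir127 holds 48.6% in replicate 2 and 45.9% in replicate 1, and Mir431 24.2% in replicate 2 and 27.2% in replicate 1.

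With 2 libraries of 1 group no likeness of pattern can be measured, so the genes nearest in level were taken. Mir127 stood between Mir205, a miRNA of stratified epithelia such as the forestomach lining, at 9768 ± 663 CPM, and Mir411 of the same imprinted domain, at 8999 ± 573 CPM (SD, n = 2). Mir431 stood between Gm25927, at 5139.6 ± 251 CPM, and Mir375, a miRNA of endocrine and gastric epithelial cells, at 5115 ± 617 CPM. Mir337 ranked 79th between Mir139 and Mir425, and Mir434 87th between Mir154 and Gm25750, both on chromosome 12. Mir433 ranked 100th between Mir96 and Mir532, Mir540 122nd between Mir497b and Mir31, and Mir665 132nd between Mir7b and Mir598. Each of the 7 genes lay within the SD of at least one of these neighbours in level.

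Mir136 could not be read directly. The row ENSMUSG00000070129, at 109595318 to 109595397, overlaps all 62 nt of its precursor. In GENCODE M21 this identifier is Mir3071, on the minus strand, and the tables carry an earlier version of it from GENCODE M4, which was not used here. The row held 1553 counts (332 CPM) in replicate 2 and 1896 counts (379 CPM) in replicate 1, a mean of 355 ± 33.2 CPM (SD, n = 2). All but 1 of these counts were on the strand that the counting annotation gave the row. Whether that strand was plus, which would make them reads of Mir136, or minus, which would make them reads of Mir3071 or of Rtl1 itself, cannot be told apart from the tables. Mature sequences of the 2 genes face each other, with 20 nt shared in position between miR-136-5p and miR-3071-3p.

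Mir337 has a gene on its other strand as well. Mir3544 lies inside its precursor, with 21 nt shared in position between miR-337-3p and miR-3544-5p, and it has no row of its own. Reads on the strand opposite to Mir337 were few, 15 in replicate 2 and 33 in replicate 1. They made up 0.194% of the Mir337 row in replicate 2 (95% Wilson interval 0.118% to 0.320%) and 0.379% in replicate 1 (0.270% to 0.531%). The other 6 counted genes had 0 counts on the opposite strand in both libraries. A count of 0 allows up to 3 counts, or 0.641 CPM in replicate 2 and 0.599 CPM in replicate 1, for counting error only. Counts in the sense of Rtl1 were thus not detectable at this depth at Mir431, Mir433, Mir127 and Mir434.

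Among the further miRNA genes of the interval, Mir3070a had 14 counts in each library and Mir3070b 1 count in each. Their precursors of 89 nt differ at 5 positions, and the 5p sequence is the same in both, so reads of it match both places, and reads that match several places stand outside the gene counts. The 3p sequences, shown because they are the mature sequences that differ between the genes, share their seed.
miR-3070-5p of both genes: aGCCCCUGaccuugaaccuggga
miR-3070-3p of Mir3070a: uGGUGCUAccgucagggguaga
miR-3070-2-3p of Mir3070b: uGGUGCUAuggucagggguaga

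Mir432, between Mir434 and Mir136, had 0 counts in both libraries. Its mature sequence occurs in no other precursor of the RefSeq table. Levels within the interval therefore ran from under 0.641 CPM at Mir432 to 9404 CPM at Mir127.

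The libraries were then compared gene by gene to ask how far these levels held between samples. Differences were tested with an exact conditional binomial test on the counts, with Benjamini-Hochberg adjustment over the 361 genes of 10 or more counts in both libraries. None of the 7 genes met both limits, an adjusted p below 0.05 together with a difference of at least 1 on the log2 scale, against 1.11% of all genes tested. By adjusted p alone all 7 differed, against 42.1% of all genes tested, and all 7 had an unadjusted p under 0.05. Of these, 6 were lower in replicate 2, against 17.5% of all genes tested, and 1 was higher, against 24.7%. The test sets counting noise alone against the difference between 2 samples, and at these counts it passes small differences. It compares these libraries and no conditions.

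The log2 ratios of replicate 2 over replicate 1 ran from -0.30 for Mir431 (95% interval -0.33 to -0.28, adjusted p = 1.71e-118, exact binomial test) to 0.15 for Mir665 (0.07 to 0.24, adjusted p = 0.00123). Between these lay Mir434 at -0.21, Mir433 at -0.19, Mir540 at -0.11, Mir337 at -0.08 and Mir127 at -0.05. The median of the 7 was -0.11, beside 0.04 over all genes tested, where 155 were below 0 and 206 above. The summed counts gave -0.13, or 1.10-fold. The row that overlaps Mir136 had a log2 ratio of -0.19, between those of Mir434 and Mir540. With DESeq2 size factors, which shift every ratio by -0.09, Mir665 stood at 0.06 and its adjusted p was 0.247 in the same exact test, so that it no longer passed.

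**Figure D3:**
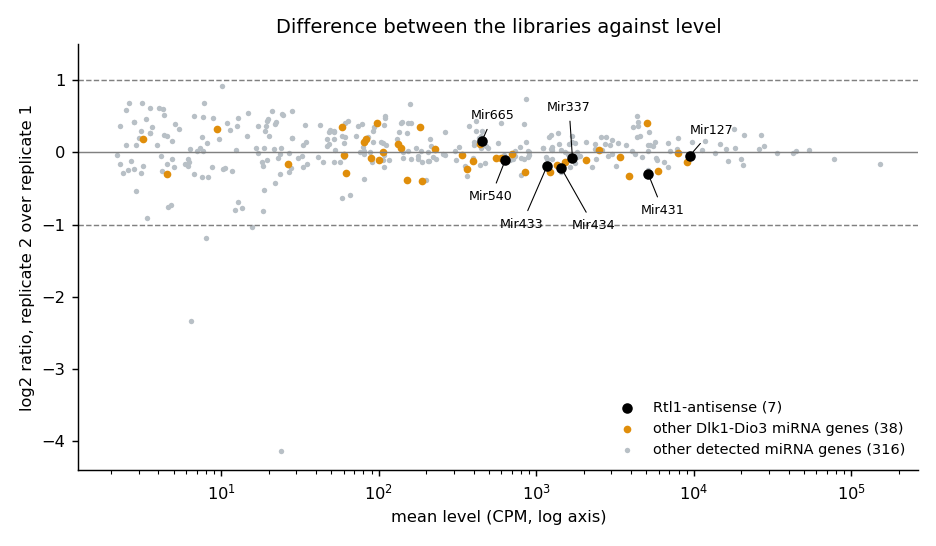
Log2 ratio of replicate 2 over replicate 1 against the mean level in CPM (log axis), 1 point per gene of 10 or more counts in both libraries; dashed lines mark a log2 ratio of 1 in either direction. The 7 Rtl1-antisense genes, in black, lie between -0.30 and 0.15, and 6 of them below 0.

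By CPM, Mir540 was lower and its neighbour Mir665 higher in replicate 2, but with DESeq2 size factors Mir665 did not differ by adjusted p. The ratio of the pair within a library does not depend on the scaling. Mir540 exceeded Mir665 1.28-fold in replicate 2 and 1.54-fold in replicate 1 by CPM. By contrast Mir337, which lies next to Mir540, exceeded it 2.71-fold in replicate 2 and 2.64-fold in replicate 1. The difference between these ratios was not tested.

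Finally the 7 genes were set beside the other miRNA genes of the domain, whose maternal transcripts Meg3, Rian and Mirg are thought to be read in common. The lists were named from the annotation of the domain and not by level. Some genes of the domain have no row, so shares and ranks cover counted genes only. The Rtl1-antisense genes held 28.1% of the counts of the 48 counted genes in replicate 2 and 29.0% in replicate 1, a mean of 28.5% ± 0.62 (SD, n = 2). Mir127 ranked 1st and Mir431 5th of the 48, and Mir665, the lowest of the 7, ranked 22nd.

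The miRNA genes of Meg3 and Rian were lower. Their 7 counted genes totalled 1725 ± 97.8 CPM, led by Mir341 at 845 ± 114 CPM (SD, n = 2), and Mir1906-1 was read in neither library. Relative to theirs, the Rtl1-antisense total had a log2 ratio of 3.52 in replicate 2 and 3.54 in replicate 1, an 11.5-fold mean difference that was far larger than the spread between libraries. The difference was not tested.

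The large cluster that runs from Mir379 to Mir410 was higher in total and lower at the median of its genes. It has 39 genes in GENCODE M21, of which 34 are counted, so its total lacks the genes without a row. Of the 34, 32 had 10 or more counts in both libraries. It totalled 48190.5 ± 1655 CPM (SD, n = 2) over the counted genes. Its leading genes were Mir411, Mir487b, at 7968.5 ± 49.5 CPM, and Mir379, at 5922 ± 749.9 CPM. The log2 ratio of the Rtl1-antisense total over this cluster was -1.31 in replicate 2 and -1.24 in replicate 1, a mean of -1.27 ± 0.04, so the cluster total was 2.42-fold higher. Without the 5 genes of the cluster that have 20 nt or more in common with another precursor, Mir411, Mir487b and Mir299b among them, the mean was -0.53. Reads that match several places stand outside the gene counts, so the counts of these 5 genes may be too low. Their removal does not correct for such lost reads. Of the Mir299b counts, 9277 of 9288 in replicate 2 and 10640 of 10652 in replicate 1 lay on the opposite strand. The median level over the genes with 10 or more counts was 1434 CPM for the 7 Rtl1-antisense genes, 116 CPM for the 6 of Meg3 and Rian, and 351 CPM for the 32 of the large cluster. These medians describe lists of unequal length and carry no test.

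The large cluster also leaned to lower values in replicate 2. Its median log2 ratio was -0.08, with 22 of 32 genes below 0, and 13 lower and 4 higher by the Benjamini-Hochberg adjusted p of the exact test alone. The median of the 6 Meg3 and Rian genes was 0.15, with 2 below 0. All 3 lists come from the same 2 libraries.

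**Figure D4:**
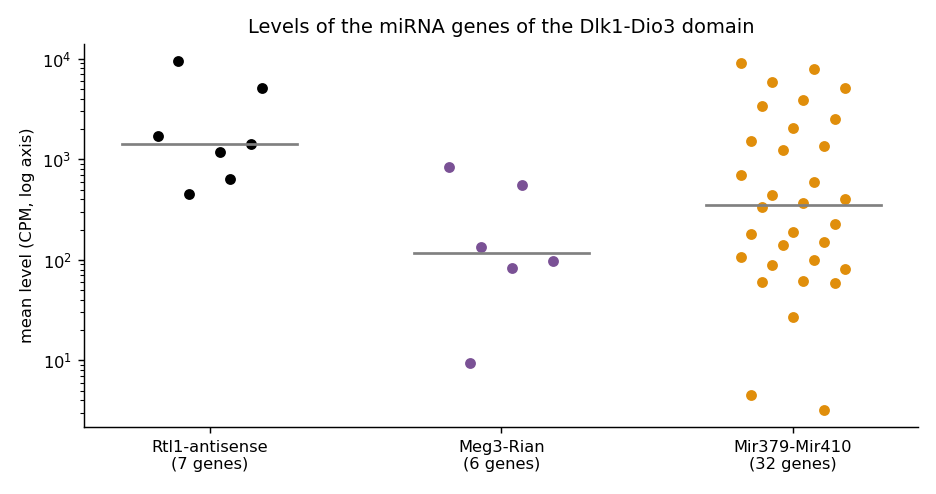
Mean level in CPM over the 2 libraries (log axis) of each miRNA gene with counts, for the Rtl1-antisense genes, the Meg3 and Rian genes and the cluster from Mir379 to Mir410; grey lines are medians. The medians are 1434, 116 and 351 CPM, and each of the 7 Rtl1-antisense genes has a mean of at least 452 CPM.

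Depth was similar, at 4679914 gene counts for replicate 2 and 5004548 for replicate 1. Sampling noise did not cover the difference between libraries, which had a chi-square of 75.8 per degree of freedom over the 361 genes, so they are not 1 library deposited under 2 names. The labelled tissue was checked against miRNA markers. Smooth muscle Mir143 and Mir145a totalled 155329 ± 12469 CPM, the epithelial Mir200 family 41460.4 ± 30.7 CPM, Mir375 5115 ± 617 CPM and liver Mir122 61.3 ± 6.41 CPM (SD, n = 2). The striated muscle list totalled 13.9 ± 4.89 CPM and the neural list 1750.5 ± 115 CPM, with Mir137 its single gene of 10 or more counts in both libraries. Mir133a-1, Mir133a-2, Mir124a-1 and Mir124a-2 were listed at 0. Each of them is a copy of a gene that gives the same mature miRNA elsewhere in the genome, and reads that match several places are left out of gene counts, so these values and the totals of both lists do not measure striated muscle or neural cells. Smooth muscle miRNAs were lower in replicate 2, as was the Rtl1-antisense total, at 146512 CPM in replicate 2 and 164146 CPM in replicate 1. Mir375 was lower as well, at 4678 CPM in replicate 2 and 5552 CPM in replicate 1. The epithelial family had 41482 CPM in replicate 2 and 41439 CPM in replicate 1, Mir122 65.8 CPM in replicate 2 and 56.7 CPM in replicate 1, the neural list 1832 CPM in replicate 2 and 1669 CPM in replicate 1, and the striated muscle list 10.5 CPM in replicate 2 and 17.4 CPM in replicate 1. The part of any cell type in the Rtl1-antisense levels was not tested.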

How the data were processed

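MicroRNA reads from 2 stomach samples were counted per gene by the authors. The deposited tables hold whole-number counts in 3 columns, both strands and each strand alone, made on mm10 with GENCODE M4, per the text that accompanies the files. The aligner and counting program were not given in the sources used here. Lines that name no gene, among them reads that map to several places (27.6% ± 0.28 of all reads, SD, n = 2), were left out of totals and tests. Reads of sequences with several genomic copies are thus missing from gene counts. Total depth was 8251892 reads in replicate 2 and 8755979 in replicate 1.

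The both-strand column was used throughout. The strands add up to it for every gene, and 97.3% of gene counts in replicate 2 and 97.2% in replicate 1 were on the strand of the counting annotation. Symbols and coordinates come from GENCODE M21 on the same assembly, which matched 1894 of 1973 identifiers. Levels are CPM, as mean ± SD, and RPKM was computed with the annotated gene length. A gene was tested with 10 or more counts in both libraries by an exact conditional binomial test, two-sided (Python 3.11.15, SciPy 1.17.1). Benjamini-Hochberg adjustment covered all 361 such genes. The test was checked on simulated counts with known changes and counting noise alone, so the check does not cover variation between samples. A quasi-likelihood test has no residual degrees of freedom here. Wilson intervals and the limit of 3 counts cover counting error only, as reads carry no molecular identifiers. Alternatives used TMM factors (edgeR 4.0.16), DESeq2 1.42.0 size factors, totals without the 5 most abundant genes, all reads as denominator, 1 strand, a minimum of 1 count, and each library alone.

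The text names the 8 genes, every other miRNA gene in their span, the genes directly above and below each in mean CPM, the 3 leading other genes of the domain, and markers of the tissue. Genes named beyond this rule (Mir341, Mir299b, Mir1906-1 and the seed relative miR-6915-5p) were chosen after their values were seen. Members and lists were chosen with earlier results of these data known. SDs rest on 2 samples, and p-values set these libraries against each other.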

Additional observations from a re-analysis of the deposited data

Results flagged for a closer look

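Counts on the strand opposite to Mir337 were above the 3 counts that a count of 0 allows, in the separate strand column that the comparisons above do not use. They were 15 in replicate 2 and 33 in replicate 1. Mir3544 is annotated on that strand and has no row in the tables. Groups of 2 samples are too small to single out a sample that stands apart.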

How the results depend on the processing

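With all reads in place of gene counts as the denominator, the Rtl1-antisense total was 11349 CPM, and with totals that leave out the 5 most abundant genes 31750.3 CPM, since the denominator itself grows or shrinks. The levels of the 7 genes moved in the same way. On the annotated strand alone, the level of Mir127 was 9669 CPM, more than 1 SD above its mean of 9404 ± 223 CPM. The total and the levels of the other genes stayed within 1 SD there. With either library alone the total ran from 19007 to 20851 CPM. None of the 7 genes passed both thresholds under any scaling, strand or filter tried. By adjusted p alone 7 differed, and 6 with DESeq2 size factors. Each of the 7 log2 ratios kept its sign under all of these. Over the cluster from Mir379 to Mir410, the mean log2 ratio of the totals was -1.21 on the annotated strand, -1.21 without Mir299b and -0.53 without genes that share sequence, the last a loss of 5 genes from the cluster total. The last 2 were chosen after seeing the data. The annotated strand and the loss of Mir299b remove nearly the same counts from the cluster, as those of Mir299b lay almost wholly on the opposite strand. With the row that overlaps Mir136 added, also chosen after seeing the data, the total stayed within 1 SD. No paired analysis was possible because both samples belong to 1 group. Mir3070a, Mir3070b and Mir432 had 14 counts or fewer. For the 2 Mir3070 genes depth is not the sole limit, because reads of their common 5p sequence are left out of gene counts.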
